A study of Mus musculus with 18 samples.

Results

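The 44 DNA replication genes described here code for the proteins that license origins, unwind the duplex, copy it and supply its building blocks. They were taken as the rows of a deposited expression table whose gene symbol stood on a list of replication genes, and each of the 44 symbols was found once among the 36528 entries. RNA was sequenced from CD4 T cells of the spleen of female NZB/W F1 mice, which develop a lupus-like disease, and the study asked what Ox40 signalling does to these cells together with T cell receptor signalling. Ox40 (Tnfrsf4) is a costimulatory receptor of the TNF receptor family on activated T cells. The mice were 21 to 27 weeks old, had proteinuria of 30 to 100 mg/dL, and gave cells that were purified with an isolation kit.

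All 6 groups were cultured for 48 hours with 10 U/mL of IL-2, so the cytokine was present in the groups without beads as well. In 3 groups an IgG1 antibody to Ox40 was added at 25 µg/mL, and in the other 3 an isotype-matched IgG1, called control Ig, was used at that dose. Beads carrying antibodies to CD3 and CD28, which stand in for antigen and costimulation, were given at 0, 0.1 or 1 bead per cell, called no, low and high beads below. Each group had 3 libraries, 18 in all. The labels do not say whether the 3 came from separate mice, separate cultures or one pool, so a p-value here reflects the spread among such libraries and nothing wider, and that spread may be technical.

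Replication starts in G1, when the origin recognition complex, Cdc6 and Cdt1 load the ring of Mcm2 to Mcm7 onto DNA, and geminin (Gmnn) later blocks Cdt1 so that loading is not repeated. At the entry to S phase Mcm10, Cdc45 and the GINS proteins turn the ring into a running helicase, polymerase alpha with primase lays down primers, and polymerases delta and epsilon extend them on the Pcna clamp. Resting T cells are in G0 with low levels of most of these transcripts, and E2F transcription factors drive many of the genes when a cell is stimulated to divide.

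Promoters are shown for the members that differed between the antibodies without beads, followed by 3 members whose promoters hold letters of an E2F site. RefSeq promoters of build GRCm38.p6, each reaching from 250 bases before to 50 after an annotated start, were available for 33 of the 44 members. The other 11 members were Gmnn, Mcm4, Gins1, Gins2, Gins4, Rfc2, Dscc1, Prim2, Pole, Exo1 and Esco2. Both strands were searched for TTTCCCGC, TTTCGCGC, TTTGCCGC and TTTGGCGC, as letters of an E2F site, and for TTTGAA, the letters of the CHR element found in many genes of mitosis, and overlapping matches were each counted. Tk1 (thymidine kinase, chr11:117825965-117826264, minus strand), Chaf1a (a subunit of the chromatin assembly factor CAF-1, chr17:56040166-56040465, plus strand) and Rrm2 (the small subunit of ribonucleotide reductase, chr12:24708004-24708303, plus strand) differed between the antibodies without beads. Neither set of letters is in these 3 windows, which says only that these letters are not there. Each line below runs 5′ to 3′ in the direction of transcription.
Tk1: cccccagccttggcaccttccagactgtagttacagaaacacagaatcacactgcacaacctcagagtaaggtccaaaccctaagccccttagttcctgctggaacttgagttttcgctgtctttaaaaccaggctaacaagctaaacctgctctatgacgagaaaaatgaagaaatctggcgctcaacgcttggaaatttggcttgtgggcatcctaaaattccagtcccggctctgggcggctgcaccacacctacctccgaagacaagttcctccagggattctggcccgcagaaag
Chaf1a: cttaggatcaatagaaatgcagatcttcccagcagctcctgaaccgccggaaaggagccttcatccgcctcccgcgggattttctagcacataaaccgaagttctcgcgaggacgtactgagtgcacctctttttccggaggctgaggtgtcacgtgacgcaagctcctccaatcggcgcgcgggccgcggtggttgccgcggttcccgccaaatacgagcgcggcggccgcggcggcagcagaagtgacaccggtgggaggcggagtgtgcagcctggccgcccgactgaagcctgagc
Rrm2: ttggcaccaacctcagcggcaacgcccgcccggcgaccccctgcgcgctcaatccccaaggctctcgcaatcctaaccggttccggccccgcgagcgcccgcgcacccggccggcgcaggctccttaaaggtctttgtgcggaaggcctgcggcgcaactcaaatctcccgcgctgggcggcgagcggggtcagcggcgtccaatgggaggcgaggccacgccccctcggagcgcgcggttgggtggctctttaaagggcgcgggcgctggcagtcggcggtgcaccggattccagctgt

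The E2F letters were in 13 of the 33 members' promoters (39.4%), against 626 of the table's 27025 promoters (2.32%). These 13 were Orc1, Cdc6, Cdt1, Mcm3, Mcm5, Mcm6, Mcm7, Gins3, Pola1, Pold1, Pole2, Rfc3 and Clspn. The CHR letters were in 4 members (12.1%), namely Mcm2, Cdc45, Gins3 and Fen1, against 4893 of all promoters (18.1%). A match is a description of the letters and not a measured site. The next 3 promoters were chosen after the matches were seen, with the matches in capitals. Mcm6 (chr1:128359656-128359955, minus strand) holds 3 matches, with first bases at -110, -106 and -47 from the start, of which the first pair overlap. Mcm3 (chr1:20820263-20820562, minus strand) holds 2, at 19 and 38 bases after the start. Clspn (claspin, an adaptor of the fork checkpoint, chr4:126556730-126557029, plus strand) holds 1, at 21.
Mcm6: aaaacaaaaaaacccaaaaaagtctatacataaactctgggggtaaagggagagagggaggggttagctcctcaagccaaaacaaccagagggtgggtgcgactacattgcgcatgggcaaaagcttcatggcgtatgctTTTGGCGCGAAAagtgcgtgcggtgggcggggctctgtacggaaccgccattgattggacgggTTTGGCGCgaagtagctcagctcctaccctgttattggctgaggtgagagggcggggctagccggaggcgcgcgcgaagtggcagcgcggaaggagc
Mcm3: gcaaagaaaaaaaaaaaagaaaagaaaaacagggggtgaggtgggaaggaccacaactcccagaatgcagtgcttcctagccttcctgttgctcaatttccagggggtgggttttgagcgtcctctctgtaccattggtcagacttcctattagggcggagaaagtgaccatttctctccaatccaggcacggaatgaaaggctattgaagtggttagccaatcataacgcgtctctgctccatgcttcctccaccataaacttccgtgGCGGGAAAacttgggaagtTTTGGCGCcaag
Clspn: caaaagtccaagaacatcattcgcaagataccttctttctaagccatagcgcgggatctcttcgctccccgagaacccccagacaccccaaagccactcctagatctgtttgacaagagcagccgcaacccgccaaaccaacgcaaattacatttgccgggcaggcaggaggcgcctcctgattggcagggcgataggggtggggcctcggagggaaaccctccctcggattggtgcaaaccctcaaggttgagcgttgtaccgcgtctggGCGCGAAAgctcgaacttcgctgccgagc

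Levels are given in the deposited unit, normalised RPKM (nRPKM), a read count scaled for gene length and library depth. The gene lengths used were not given, so ratios of levels between genes are approximate. Changes were tested with limma on log2(nRPKM + 1) over 13075 genes at 1 nRPKM or more in at least 3 libraries, and calls were made where the p, adjusted by Benjamini and Hochberg's method, was under 0.05. All 44 members passed that filter. The pseudocount of 1 makes fold changes of low genes smaller than the ratio of their levels. From steps in the values, libraries held 26.4 to 46.0 reads for each nRPKM of a transcript of 1 kb, and the values of a library summed to 273498 to 348466. The 8 markers of CD4 T cells summed to 1459 to 2066 nRPKM in every library and none was at 0. The 8 B cell markers summed to 4.34 to 10.5 in replicates 1 and 2 of the 6 groups and to 7.19 to 54.2 in replicate 3, which was the highest of its group in all 6. The 5 transcripts of lung epithelium, foreign to the spleen, summed to 0 to 0.107 without beads, to 0.014 in replicate 1 of control Ig with low beads, and to 22.9 to 215 in the other 11 libraries.

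Stimulation with beads raised every member. All 44 rose in control Ig with low beads over no beads, where 32.6% of all genes tested were called higher, and the median change was 1.81 on the log2 scale against 0.01 for all genes. All 44 rose again from low to high beads (40.0% of genes called higher), with a median of 0.83, and in high over no beads (43.4%), with a median of 2.55 against 0.04. With anti-Ox40 the same 3 comparisons also called 44 of 44 members higher, with medians of 1.95, 0.57 and 2.48, beside 37.1%, 40.3% and 45.2% of all genes for low over no, high over low and high over no beads. The largest adjusted p among the members was 0.0254, for high over low beads with anti-Ox40. As the RNA came from bulk cultures, more cells in cycle and more RNA per cell cannot be told apart. Scaling the libraries to their 75th percentile moved the median of all genes in high over no beads from 0.04 to -0.11 with control Ig and from 0.06 to -0.12 with anti-Ox40, small beside the members' changes, and left 44 of 44 called.

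**Figure D1:**
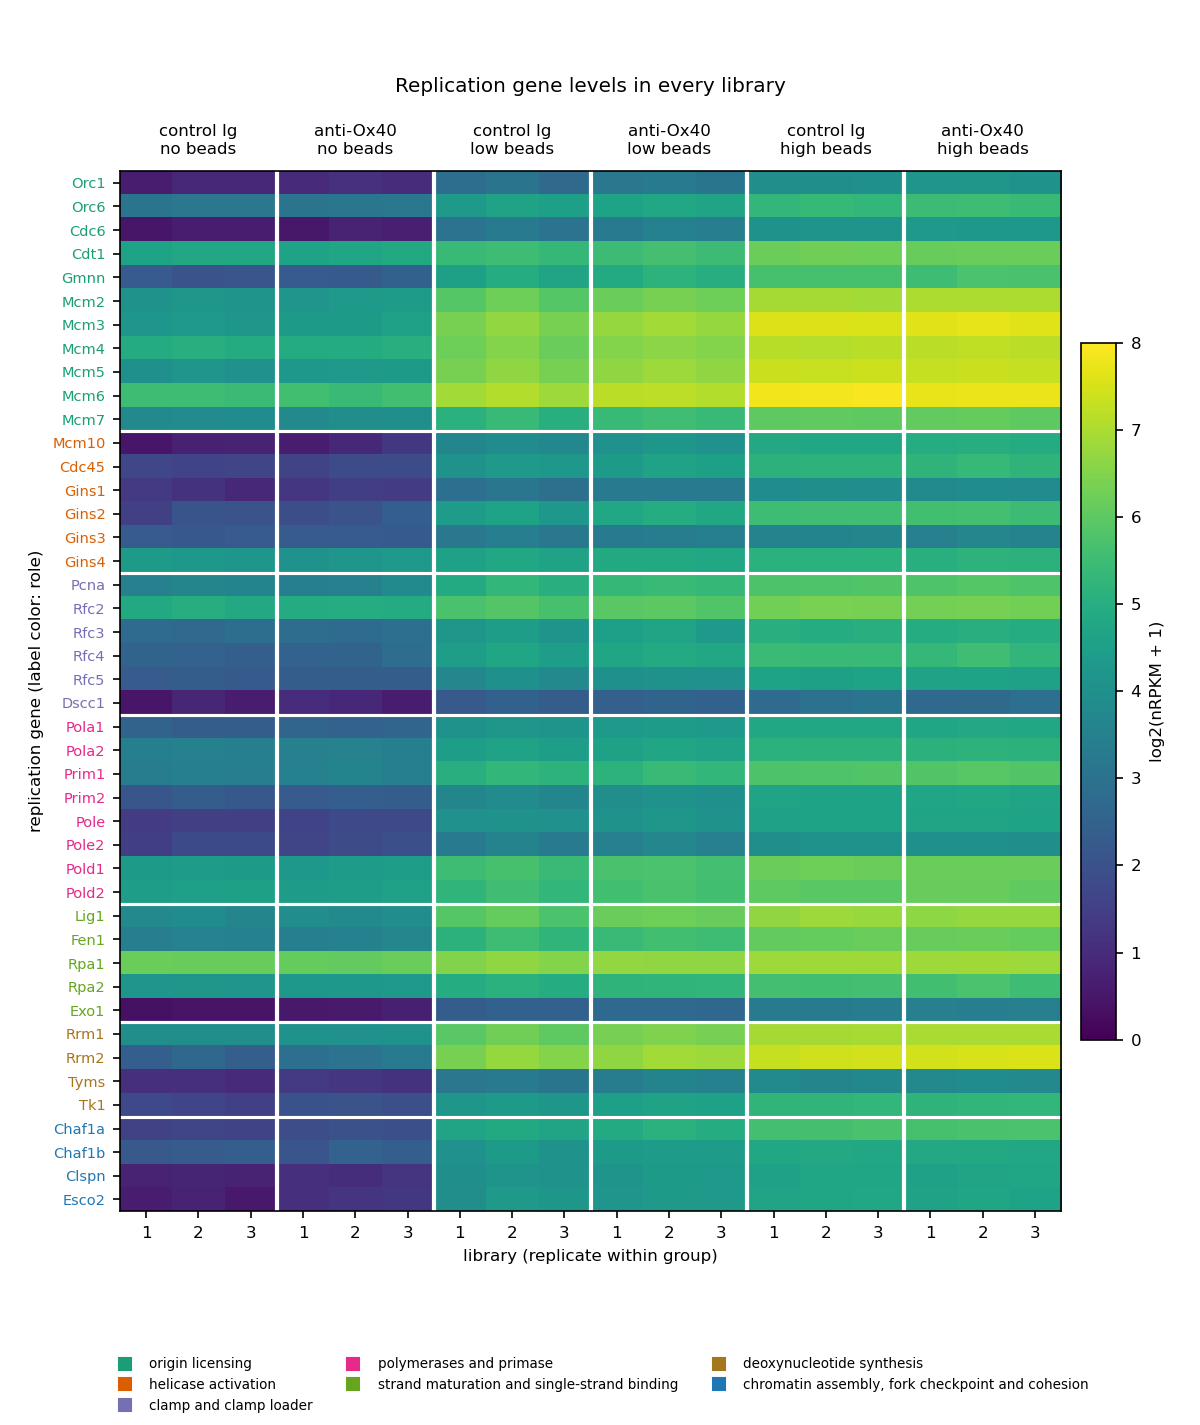
Heat map of log2(nRPKM + 1) for the 44 members (rows, ordered by role) in the 18 libraries (columns, ordered by bead dose and antibody, 3 to a group). Every row rises in steps from no to low to high beads, and Rpa1 and Gins4 change least.

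Markers of other cells moved with the bead dose. All 7 tested myeloid markers fell in low over no beads with control Ig, and the sum of 8 such markers was 231 to 326 nRPKM without beads, 11.8 to 26.2 with low and 2.58 to 9.06 with high beads, with none at 0 throughout a group. The 5 NK cell markers summed to 31.1 to 42.9, 10.2 to 15.4 and 2.12 to 5.34 at the 3 doses. They did not all move together. Of the 3 tested, Eomes rose in low over no beads (0.95 with control Ig, 0.80 with anti-Ox40) while 2 fell. In high over no beads all 3 fell under both antibodies. The nuclear RNA Malat1 was at 247 to 536 nRPKM without beads and at 59.6 to 109 with high beads. With the summed nuclear RNAs as a covariate, fewer members were called in high over low beads with anti-Ox40, as given in the section on processing. Beyond that fit, the part of these markers in the members' changes was not tested.

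Among the licensing genes Cdc6 had the largest change from no to high beads (3.54 on the log2 scale). Cdc6, the loader that brings the helicase to the origin complex, was at 0.410, 0.534 and 0.547 nRPKM in the control Ig libraries without beads, at 7.29, 8.63 and 7.20 with low beads and at 15.7, 16.6 and 16.8 with high beads. Cdt1, its partner in loading, was at 24.2, 26.0 and 26.9 without beads, at 40.6, 45.1 and 38.8 with low beads and at 72.5, 76.0 and 75.1 with high beads. The 3 doses did not overlap for either gene, and Cdt1 rose by 0.67 (SE 0.0630) from no to low beads, the third smallest change of the members.

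The level of geminin relative to Cdt1 was higher with beads. Gmnn was at 3.94, 3.12 and 3.36 nRPKM without beads, 22.1, 30.0 and 24.7 with low beads and 50.4, 50.4 and 50.3 with high beads, so the Gmnn to Cdt1 ratio of levels in control Ig was 0.136 without beads (0.120 to 0.163 over the libraries), 0.616 with low beads and 0.676 with high beads. Among the control Ig libraries, the 3 without beads lay below all others in this ratio.

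The origin recognition complex was uneven at rest because of one subunit. Orc1, the subunit that binds and hydrolyses ATP and is known to be made anew in each cycle, was at 0.560, 0.911 and 0.841 nRPKM without beads, 6.46, 7.45 and 5.85 with low beads and 14.6, 14.9 and 15.2 with high beads under control Ig. Its rise from low to high beads, 1.07 on the log2 scale (SE 0.0855), was the third largest of the members. Orc6, the small subunit, was at 7.52, 7.98 and 8.03 without beads and at 38.3, 39.7 and 38.2 with high beads. Among the 6 subunits, of which 4 are not members, the ratio of the highest to the lowest mean level was 21.4 without beads (Orc5 over Orc1), 3.24 with low beads (Orc6 over Orc1) and 6.16 with high beads (Orc6 over Orc4).

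In the helicase ring the order at the top and bottom was the same at each dose. Mcm6 was the most abundant of Mcm2 to Mcm7 and Mcm7 the least in each of the 6 groups, and the ratio of the 2 mean levels was 3.26, 3.41 and 3.62 with no, low and high beads under control Ig and 3.21, 3.26 and 3.26 under anti-Ox40. Mcm6 was at 45.1, 44.4 and 42.4 nRPKM without beads, 117, 134 and 113 with low beads and 228, 229 and 242 with high beads under control Ig. With low and with high beads it was the highest of all 44 members. Mcm3, at 17.5, 18.6 and 17.7 without beads, 80.9, 102 and 80.4 with low beads and 190.1, 190.4 and 187 with high beads, had the largest rise from low to high beads (1.11, SE 0.0811). Within the ring the ratio of mean levels in high over no beads was 10.5 for Mcm3 and 10.3 for Mcm5, against 4.70 for Mcm4 and 4.78 for Mcm7. Mcm4, at 29.2, 31.3 and 29.2 nRPKM, was above Mcm3 in every control Ig library without beads, and at 140.2, 138 and 144 it was below Mcm3 in each with high beads.

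The genes that activate the helicase spanned the widest range of responses. Mcm10, which helps the loaded ring to open, was at 0.396, 0.664 and 0.712 nRPKM without beads, at 11.7, 13.9 and 12.3 with low beads and at 27.4, 27.1 and 27.1 with high beads, and rose by 4.15 (SE 0.123) from no to high beads. In ratio of mean levels that was 46.0, the largest of any member. Gins4, one of the 4 GINS subunits, was at 19.4, 18.4 and 17.5 without beads, 23.1, 26.4 and 23.4 with low beads and 33.6, 33.4 and 33.7 with high beads. Its rise of 0.38 (SE 0.0566) from no to low beads was the smallest of all members, though no library of one dose overlapped another.

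The other GINS subunits closed the gap to Gins4 and in one case passed it. Gins2 was at 1.88, 3.18 and 3.13 nRPKM without beads, 20.5, 24.1 and 18.1 with low beads and 44.5, 45.5 and 46.0 with high beads, and rose by 1.09 (SE 0.137) from low to high beads. Gins3 was at 3.92, 3.58 and 3.88, then 8.14, 9.63 and 8.28, then 11.03, 11.1 and 11.8, a rise of 0.35 (SE 0.0671) from low to high beads that was the second smallest of the members. The highest over lowest GINS level went from 14.8 without beads (Gins4 over Gins1) to 3.46 with low beads (the same pair) and 4.003 with high beads (Gins2 over Gins3).

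Clamp and clamp loader genes, and polymerase and primase genes, had the lowest median rises of the roles from no to high beads under control Ig. In the 6 clamp and clamp loader genes the change from no to high beads ran from 1.46 (Rfc2) to 2.94 (Rfc4), with a median of 2.26. Pcna, the sliding clamp, had means of 10.9 ± 0.743, 32.9 ± 5.02 and 54.7 ± 1.55 nRPKM (SD, n = 3) at the 3 doses under control Ig. Within the clamp loader, Rfc2 over Rfc5 was 7.25 without beads, 3.97 with low and 3.46 with high beads. The 8 polymerase and primase genes rose by 1.46 (Pold2) to 3.15 (Pole, the catalytic subunit of polymerase epsilon), with a median of 2.36.

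The single-strand binding gene Rpa1 was the flattest member. It was at 72.2, 69.5 and 69.3 nRPKM without beads, the highest level of any member there, at 89.1, 100.4 and 90.6 with low beads and at 113, 114 and 114 with high beads. Its changes were 0.40 (SE 0.0417) from no to low beads, 0.29 from low to high and 0.69 from no to high, the smallest of the members in the last 2 comparisons. Exo1, a 5′ to 3′ exonuclease of repair and replication, was the lowest member without beads at 0.294, 0.340 and 0.340, and reached 4.09, 4.63 and 4.58 with low beads and 8.90, 8.97 and 9.27 with high beads. Between Rpa1 and Exo1 the levels of the 44 members spread over a ratio of 217 without beads, and the widest ratios with low and high beads were 29.0 and 33.9, in both cases Mcm6 over Dscc1 (a subunit of an alternative clamp loader that serves cohesion).

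Deoxynucleotide genes and the last group, of chromatin assembly, checkpoint and cohesion, held the largest rises from no to low beads. Rrm2 was at 4.28, 5.51 and 4.31 nRPKM without beads, 80.3, 106 and 89.8 with low beads and 156, 169 and 175 with high beads under control Ig. Its rises of 4.03 (SE 0.104) to low and 4.88 to high beads were the largest of any member on the log2 scale with the pseudocount. Esco2, an acetyltransferase that locks cohesin onto newly copied DNA, was at 0.536, 0.696 and 0.475, then 14.4, 18.6 and 17.9, then 24.6, 25.2 and 26.3. Clspn was at 0.693, 0.782 and 0.704, then 14.99, 16.6 and 16.1, then 22.9, 25.6 and 25.0. Esco2 rose by 3.51 (SE 0.0860) and Clspn by 3.29 (SE 0.0641) from no to low beads. In ratio of mean levels, low over no beads, the order was another: 29.8 for Esco2, 21.9 for Clspn, 21.35 for Mcm10 and 19.6 for Rrm2.

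Subunits of one enzyme differed here too. Rrm1, the large subunit of ribonucleotide reductase, was above Rrm2 in each of the 6 libraries without beads and below it in each of the 12 with beads. The Rrm2 to Rrm1 ratio of levels under control Ig was 0.325 without beads, 1.37 with low beads and 1.38 with high beads. In CAF-1, Chaf1b was 1.92 times Chaf1a without beads, and Chaf1a was 1.51 and 1.81 times Chaf1b with low and high beads.

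Low beads brought most members over the middle of their range on the log2 scale. This depended on the scale. In mean nRPKM under control Ig, most members rose more from low to high beads than from no to low beads. Mcm3, for example, was at 17.9, 87.9 and 189.1 with no, low and high beads. Other members went the other way, such as Esco2 at 0.569, 16.96 and 25.37. The change from no to low beads was a median of 69.8% of the change from no to high beads over the 44 members under control Ig, on the log2 scale, from 44.6% (Cdt1) to 86.2% (Esco2), and 42 of 44 were above 50%. Under anti-Ox40 the median was 78.2%, from 54.9% (Cdt1) to 89.6% (Clspn), and the share was larger than under control Ig for 44 of 44 members. The share is made from the same groups as the comparisons below, and its difference between the antibodies was not tested by itself. Computed with each low-bead library on its own, the median had an SD of 5.43 percentage points over the 3 control Ig libraries and 2.39 over the 3 anti-Ox40 libraries.

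**Figure D2:**
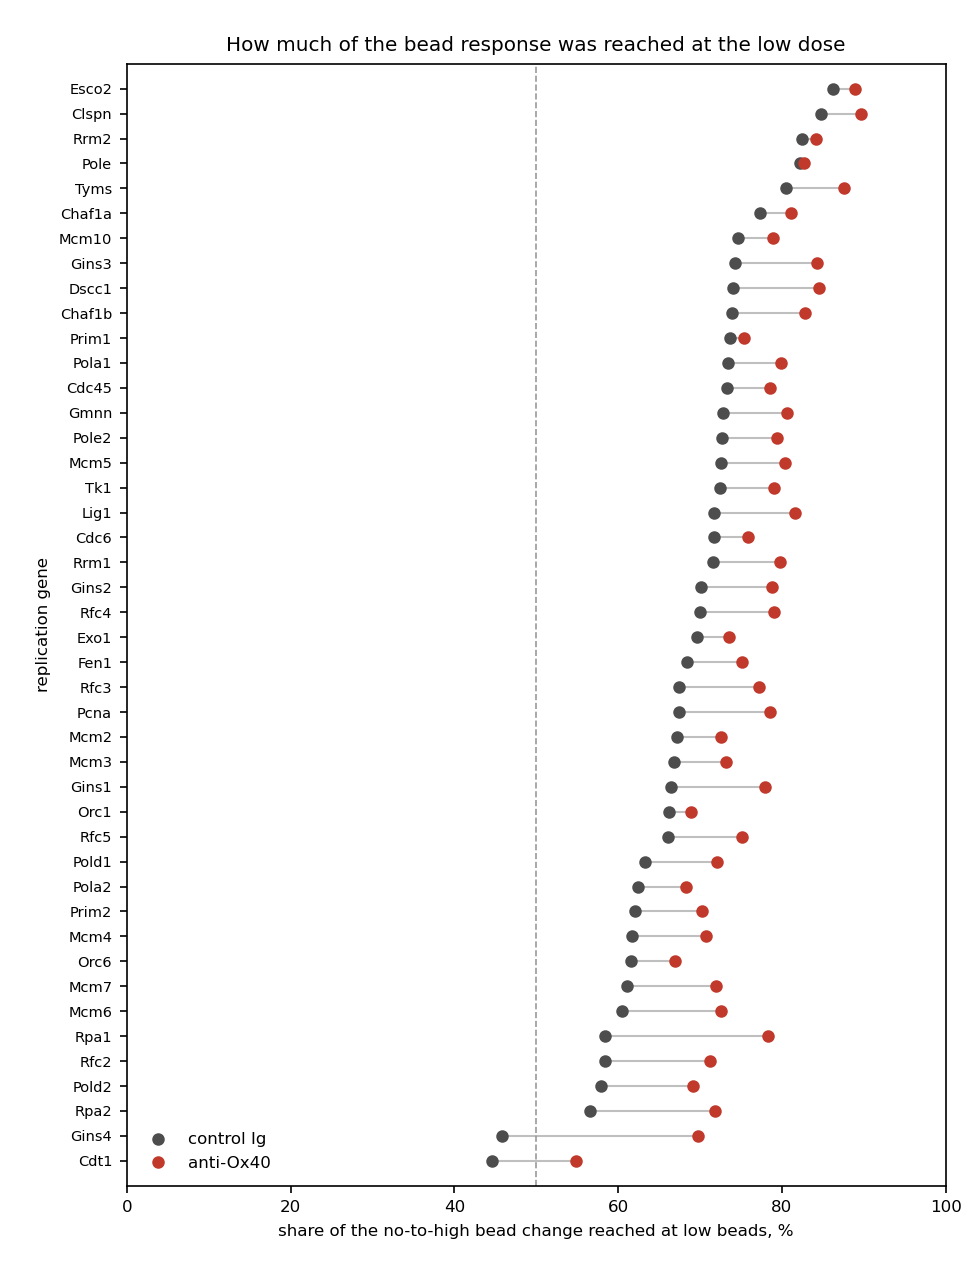
Share of the no-to-high change, on the log2(nRPKM + 1) scale, that was reached at low beads, for each of the 44 members under control Ig and under anti-Ox40, with a dashed line at 50%. Cdt1 is lowest under both antibodies, Esco2 is highest under control Ig (86.2%) and Clspn under anti-Ox40 (89.6%), and every member lies further along under anti-Ox40.

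Without beads, anti-Ox40 raised 4 of the 44 members, in cells that had only IL-2 and the antibody. These were Esco2, Tk1, Chaf1a and Rrm2, and no member fell. Of all genes tested, 0.138% (18 genes) were called higher in this comparison. The members' median difference was 0.12 on the log2 scale against -0.01 for all genes, 40 of 44 estimates were above 0, and 15 had an unadjusted p under 0.05 in limma, as did 3.97% of all genes in either direction.

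Rrm2 and Tk1 supply deoxynucleotides, the former by reducing ribonucleotides and the latter by salvage of thymidine. Rrm2 was at 4.28, 5.51 and 4.31 nRPKM with control Ig and at 6.58, 7.33 and 8.55 with anti-Ox40. Tk1 was at 2.42, 2.22 and 1.86 with control Ig and at 3.01, 3.09 and 2.89 with anti-Ox40. The groups did not overlap for either gene. The difference was 0.57 (SE 0.104, adjusted p 0.0422) for Rrm2, a ratio of means of 1.59, and 0.34 (SE 0.0583, adjusted p 0.0398) for Tk1, a ratio of 1.38.

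Rrm1, the partner of Rrm2, was at 14.4, 14.6 and 14.5 nRPKM with control Ig and at 15.9, 15.4 and 16.4 with anti-Ox40, and did not pass the test (0.13 on the log2 scale). The Rrm2 to Rrm1 ratio was 0.325 with control Ig (0.297 to 0.379) and 0.470 with anti-Ox40 (0.414 to 0.521), without overlap between the libraries. Thymidylate synthase (Tyms), which makes dTMP by the other route, was at 1.12, 1.17 and 0.968 with control Ig and at 1.54, 1.40 and 1.27 with anti-Ox40, also without overlap and also without passing the test.

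Chaf1a places histones on new DNA, and Esco2 acts on cohesin behind the fork. Chaf1a was at 1.96, 2.18 and 2.11 nRPKM with control Ig and at 2.67, 2.94 and 2.89 with anti-Ox40, a difference of 0.32 (SE 0.0567, adjusted p 0.0412) and a ratio of means of 1.36. Esco2 was at 0.536, 0.696 and 0.475 with control Ig and at 1.11, 1.32 and 1.46 with anti-Ox40. Its difference of 0.55 (SE 0.0860, adjusted p 0.0235) had the smallest adjusted p of the members, and its ratio of means of 2.28 was the largest. For these low levels the number of reads matters: with exon lengths from a GENCODE annotation, which may be longer than those the authors used, Esco2 rested on about 115 to 158 reads in a control Ig library and 256 to 275 in an anti-Ox40 library.

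The next members in order of p were Clspn, Pole and Exo1, each under 2 nRPKM in control Ig. Clspn was at 0.693, 0.782 and 0.704 nRPKM with control Ig and at 1.09, 1.08 and 1.31 with anti-Ox40 (difference 0.32, adjusted p 0.0773). Exo1 was at 0.294, 0.340 and 0.340 with control Ig and at 0.464, 0.484 and 0.613 with anti-Ox40 (0.20, adjusted p 0.283). Pole was at 1.64, 1.84 and 1.85 with control Ig and at 2.02, 2.42 and 2.41 with anti-Ox40 (0.24, adjusted p 0.124). Counting all members, the 3 anti-Ox40 libraries were above the 3 control Ig libraries for 13 of 44 and below them for none, where 4.08% of all genes were above and 5.14% below.

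The 11 licensing genes had a median difference of 0.08, from -0.01 (Orc6) to 0.23 (Orc1), and none of the 11 passed the test. Mcm6 was at 46.8, 42.2 and 46.4 nRPKM with anti-Ox40, overlapping control Ig. None of the 6 clamp genes (median 0.05), 8 polymerase and primase genes (0.11), 6 helicase activation genes (0.18) or 5 maturation and single-strand binding genes (0.06) passed either. The calls were 2 of the 4 deoxynucleotide genes (median 0.27) and 2 of the 4 genes of chromatin assembly, checkpoint and cohesion (0.32). Whether one role differed from another was not tested.

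**Figure D3:**
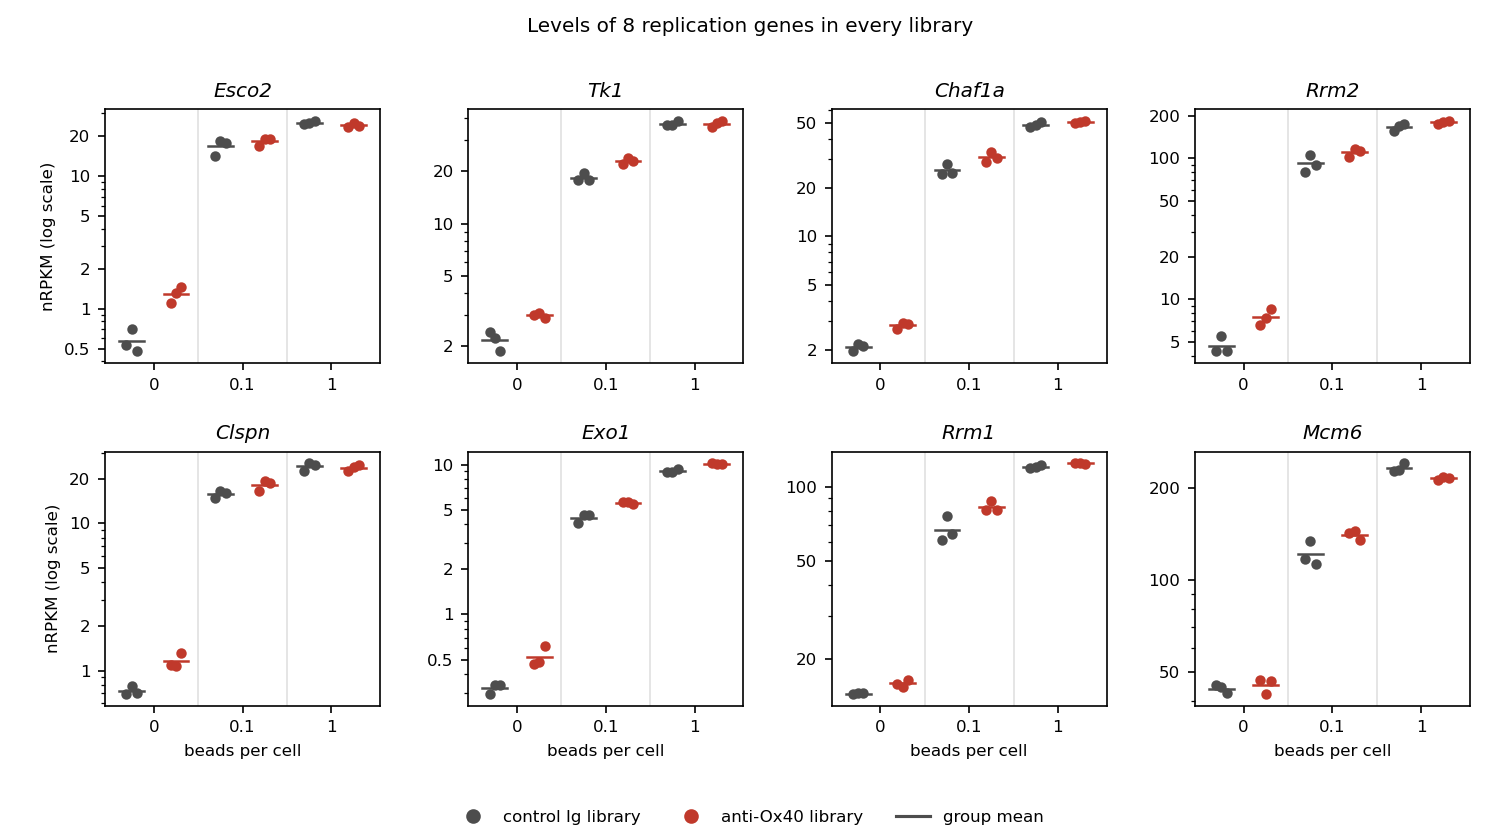
Levels in nRPKM (log axis) of Esco2, Tk1, Chaf1a, Rrm2, Clspn, Exo1, Rrm1 and Mcm6 against beads per cell, with each library as a point and each group mean as a bar for control Ig and anti-Ox40. Esco2, Tk1, Chaf1a and Rrm2 are separated between the antibodies without beads and close together with high beads. With high beads the libraries of Exo1, Rrm1 and Mcm6 do not overlap between the antibodies, and Mcm6 is the lower with anti-Ox40.

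The number of calls depended on single libraries. It was 0 without control Ig replicate 3 or without anti-Ox40 replicate 2 or replicate 3 of the groups without beads, 1 without control Ig replicate 1 and 2 without control Ig replicate 2, while the estimates for the 4 genes stayed above 0 under 31 of 31 settings. Leaving out 1 library of the bead groups, which enter through the shared spread, gave 1 call for 8 libraries, namely replicate 3 of both low-bead groups and all 6 high-bead libraries. B cell markers were alike in both groups (8.90, 9.05 and 35.1 nRPKM with control Ig, 8.86, 10.5 and 34.3 with anti-Ox40, none of 8 markers called), and leaving out replicate 3 of every group, an alternative chosen after seeing the data, left 0 calls with a smaller number of samples. Nuclear RNAs (3 genes) summed to 455 to 601 nRPKM with control Ig and 526 to 772 with anti-Ox40, and myeloid markers to 243 to 277 and 231 to 326, none of them called.

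With low beads anti-Ox40 raised 20 of the 44 members, by modest amounts and across all roles. No member fell, the 44 estimates were all above 0, and 37 had an unadjusted p under 0.05, as did 28.8% of all genes in either direction. The median difference was 0.25 on the log2 scale against 0.00 for all genes, of which 6.15% were called higher. Ratios of means ran from 1.07 (Pole) to 1.31 (Gins2) with a median of 1.19, so no member reached 1.5.

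Licensing genes, without a call in the absence of beads, were 8 of the 20. Cdc6 was at 7.29, 8.63 and 7.20 nRPKM with control Ig and at 9.08, 10.3 and 9.73 with anti-Ox40, without overlap, a difference of 0.30 (SE 0.0724, adjusted p 0.0244). Orc1, Orc6, Mcm3, Mcm4, Mcm5, Mcm6 and Mcm7 rose as well, with adjusted p from 0.0278 to 0.0429 over these and the other members not described one by one. Mcm6, for example, was at 143, 145 and 135 nRPKM with anti-Ox40 against 117, 134 and 113. Mcm2, Cdt1 and Gmnn did not pass the test.

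Cdc45 and Gins1 rose among the helicase activation genes, Rfc5 among the clamp loader genes and Lig1, the ligase that joins Okazaki fragments, among the maturation genes. Prim2, the large primase subunit, was at 11.6, 13.5 and 11.8 nRPKM with control Ig and at 14.6, 16.1 and 15.1 with anti-Ox40 (0.29, SE 0.0631, adjusted p 0.0161). Pold2, an accessory subunit of polymerase delta, was at 37.0, 45.4 and 37.9 and at 46.4, 50.8 and 46.8 (0.26, SE 0.0652, adjusted p 0.0277). In both genes every anti-Ox40 library was above every control Ig library.

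The smallest adjusted p values lay in repair, single-strand binding and nucleotide genes. Exo1 was at 4.09, 4.63 and 4.58 nRPKM with control Ig and at 5.65, 5.59 and 5.49 with anti-Ox40 (0.28, SE 0.0518, adjusted p 0.00836). Rpa2, the middle subunit of replication protein A, was at 29.9, 33.3 and 30.2 and at 36.1, 36.8 and 37.5 (0.24, SE 0.0482, adjusted p 0.0123). Neither gene's groups overlapped.

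Tk1 was at 17.6, 19.3 and 17.8 nRPKM with control Ig and at 22.0, 23.6 and 22.7 with anti-Ox40 (0.31, SE 0.0583, adjusted p 0.00897). Rrm1 was at 60.96, 76.1 and 64.4 and at 80.5, 87.4 and 80.5 (0.30, SE 0.0594, adjusted p 0.0105). Chaf1a was at 24.3, 27.9 and 24.7 and at 28.9, 33.2 and 30.3 (0.26, SE 0.0567, adjusted p 0.0183). Tk1 and Chaf1a were thus called both without beads and with low beads, with the groups apart at both doses. Tyms rose too.

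Esco2 and Rrm2, called without beads, did not pass with low beads. Esco2 was at 14.4, 18.6 and 17.9 nRPKM with control Ig and at 16.9, 19.3 and 19.0 with anti-Ox40, a ratio of means of 1.09 (estimate 0.12). Rrm2 was at 80.3, 106 and 89.8 and at 102, 116 and 114, a ratio of 1.198 (0.27). Both overlapped, through control Ig replicate 2 in each gene and replicate 3 in Esco2. Over all members 25 of 44 were above control Ig in every library and none was below, where 13.1% of all genes were above and 12.8% below.

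As a share of the step from low to high beads under control Ig, the antibody difference with low beads was a median of 30.0% over the 44 members, from 14.1% (Cdt1) to 55.4% (Tyms). The share for Exo1 was 31.2% and for Rrm1 35.9%. In no member did low beads with anti-Ox40 reach the mean of high beads with control Ig.

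**Figure D4:**
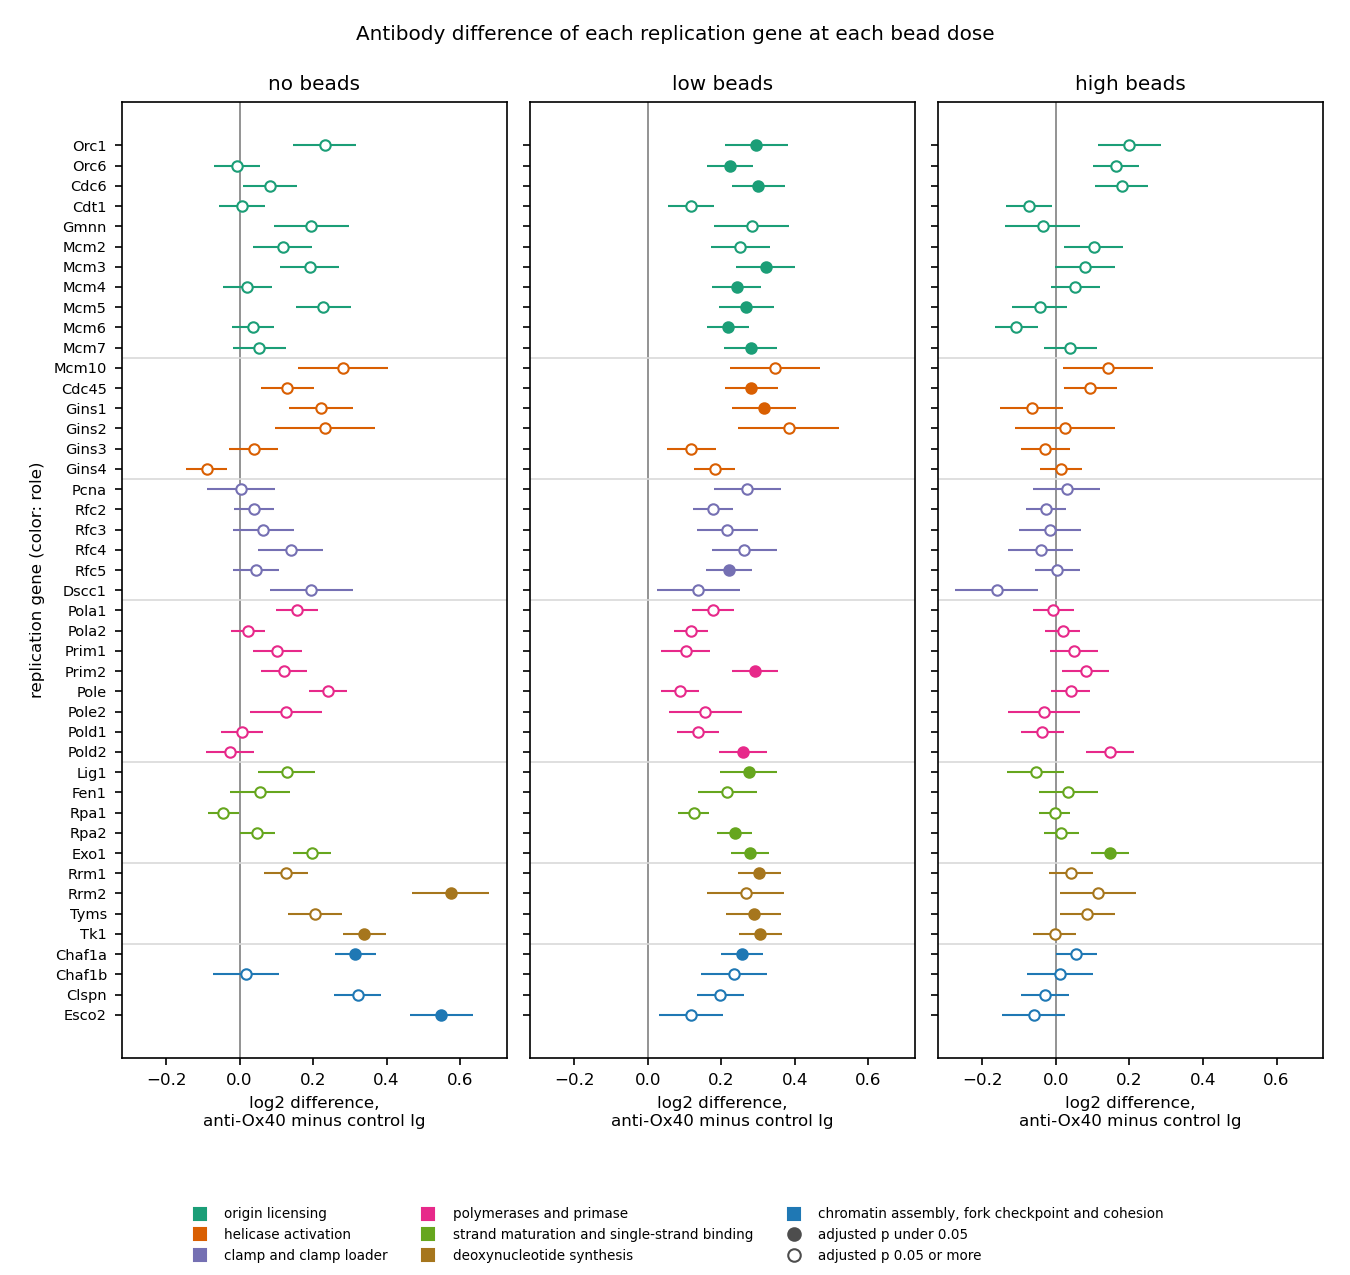
Difference of anti-Ox40 from control Ig in log2(nRPKM + 1) for each of the 44 members (rows by role) at no, low and high beads, with bars of 1 SE and filled points for adjusted p under 0.05. Filled points are 4 without beads, 20 with low beads and 1 with high beads, and all low-bead points lie above 0.

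One control library stood apart in this comparison. Replicate 2 of control Ig with low beads was the highest of its group for 44 of 44 members, and at or above the lowest anti-Ox40 library for 19 of them, against 0 for replicate 1 and 2 for replicate 3. Its mean over the members on the log2 scale was 4.82, against 4.58 and 4.61 in the other two and 4.85 to 4.98 with anti-Ox40. Without it 39 of 44 members were called, and the 6.15% of all genes given above is from the full fit and not from this one. The other replicates worked the opposite way: without control Ig replicate 1 there were 0 calls and without replicate 3 there was 1, and without anti-Ox40 replicates 1, 2 and 3 there were 11, 4 and 6.

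Other measures moved with these libraries. Malat1 was at 453, 173 and 435 nRPKM in the control Ig libraries with low beads and at 213, 247 and 254 with anti-Ox40, so replicate 2 was low in it where it was high in the members. With the summed nuclear RNAs as a covariate 4 members were called. Lung transcripts summed to 0.014, 22.9 and 25.8 with control Ig and to 62.1, 38.4 and 215 with anti-Ox40, 5 of 5 being called higher, and with their sum as a covariate, chosen after seeing the data, 0 members were called while 43 of 44 estimates stayed above 0. B cell markers summed to 8.47, 6.91 and 54.2 with control Ig and to 7.98, 6.45 and 45.9 with anti-Ox40, and without replicate 3 of every group, also chosen after seeing the data, 0 members were called. The part of these measures in the members' differences was not tested further. Across all settings run, the members' median difference with low beads stayed between 0.18 and 0.32.

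**Figure D5:**
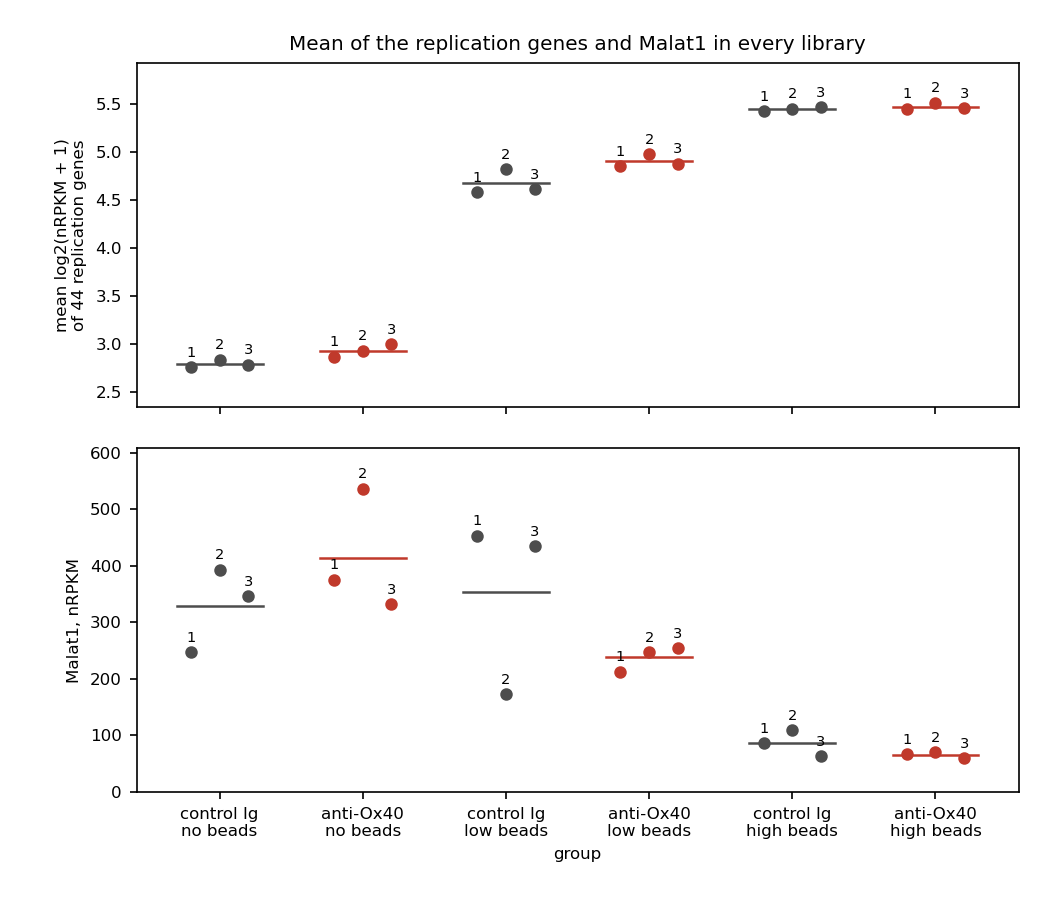
Mean of log2(nRPKM + 1) over the 44 members (upper panel) and Malat1 in nRPKM (lower panel) for each of the 18 libraries, numbered by replicate and coloured by antibody. Replicate 2 of control Ig with low beads lies highest of its group in the members (4.82) and lowest in Malat1 (173 nRPKM).

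With high beads 1 of the 44 members differed between the antibodies. Exo1 rose and none fell, where 14.4% of all genes were called higher. Exo1 was at 8.90, 8.97 and 9.27 nRPKM with control Ig and at 10.2, 10.1 and 10.2 with anti-Ox40, without overlap (0.15, SE 0.0518, adjusted p 0.0465). The median difference was 0.02 against 0.00 for all genes, 26 of 44 estimates were above 0, and 5 members had an unadjusted p under 0.05, a smaller share than the 37.2% of all genes that did in either direction. Under 75th percentile scaling the members' median was -0.01, so its sign depended on the scaling.

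The genes next in order belonged to licensing. Orc6 was at 38.3, 39.7 and 38.2 nRPKM with control Ig and at 43.8, 45.1 and 41.6 with anti-Ox40 (0.16, adjusted p 0.0648). Cdc6 was at 15.7, 16.6 and 16.8 and at 19.2, 18.4 and 18.4 (0.18, adjusted p 0.0825). Orc1 was at 14.6, 14.9 and 15.2 and at 17.3, 18.02 and 16.4 (0.20, adjusted p 0.101). The libraries did not overlap for these 3 genes, and they were among 11 members with every anti-Ox40 library above control Ig, beside 23.8% of all genes. In 3 members, Cdt1, Mcm6 and Pold1, every anti-Ox40 library was below, beside 19.5% of all genes. Mcm6 was at 213, 218 and 216 against 228, 229 and 242.

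The Exo1 call was lost without any 1 of the 6 high-bead libraries, with adjusted p up to 0.128. Of the other libraries, leaving out any 1 of control Ig without beads, of anti-Ox40 with low beads, or replicate 3 of control Ig with low beads gave 0 calls, and leaving out replicate 1 or 2 of the last group gave 2 and 4. The CD4 T cell markers themselves shifted here, 5 of 8 being lower with anti-Ox40, and their sum was 1725 to 1913 nRPKM with control Ig and 1459 to 1594 with anti-Ox40, none at 0. Their part was not tested.

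Whether the antibody effect depended on the dose was tested by interaction terms. The antibody effect was smaller with high than with no beads for 4 members: Esco2 (difference of differences -0.61, adjusted p 0.00841), Clspn (-0.35, adjusted p 0.0238), Tk1 (-0.34, adjusted p 0.0178) and Chaf1a (-0.26, adjusted p 0.0495). Of all genes 4.70% were called lower in that term, and 3 of the 4 belong to the group of chromatin assembly, checkpoint and cohesion genes, which has 4 members. Esco2 with high beads was at 24.6, 25.2 and 26.3 nRPKM with control Ig and 23.5, 25.4 and 23.9 with anti-Ox40, and Clspn at 22.9, 25.6 and 25.0 and 22.8, 24.2 and 24.8, both overlapping. Tk1 was at 36.7, 36.5 and 38.4 and 35.5, 37.3 and 38.6, and Chaf1a at 47.4, 48.9 and 50.7 and 50.2, 51.0 and 51.7, also overlapping. The members' median in that term was -0.07 against 0.01 for all genes, and 9 had an unadjusted p under 0.05, beside 26.7% of all genes in either direction. The number of calls ran from 1 to 6 as each library was left out in turn, with 2 without control Ig without beads replicate 3 or control Ig with high beads replicate 2, and 1 when either control Ig replicate 3 or anti-Ox40 replicate 1 with high beads was dropped. It was 0 without replicate 3 of every group.

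Between low and high beads 1 member was called lower in the antibody effect at the high dose, Mcm6 (-0.33, adjusted p 0.0423). Of all genes 1.70% were called lower, and 1 of 44 members is close to that share. The ratio of means of Mcm6 was 1.16 with low beads and 0.928 with high beads, so its estimate changed sign. The term was below 0 for 44 of 44 members, with a median of -0.20 against 0.00 for all genes and a range from -0.38 (Gins1) to -0.05 (Pole), and 19 had an unadjusted p under 0.05, beside 20.2% of all genes in either direction. It rests on the same low-bead libraries as the comparison above: without control Ig replicate 2 with low beads 16 members were called, and leaving out any 1 of the other 5 low-bead libraries left 0. The same held for 2 libraries without beads, control Ig replicate 2 and anti-Ox40 replicate 1, and for 4 with high beads, control Ig replicates 2 and 3 and anti-Ox40 replicates 1 and 3. Between no and low beads limma called 0 members in either direction, where 0.00765% of all genes (1 gene) were called lower, and 10 members had an unadjusted p under 0.05, beside 17.6% of all genes in either direction. That term had a median of 0.13, from -0.43 (Esco2) to 0.28 (Pold2). Without control Ig replicate 2 with low beads 11 members were called, and without replicate 1 there was 1. The shares of all genes given for these terms are from the full fit and not from the fits with a library left out.

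Other genes of the pathway were taken from lists chosen by role. Of 82 other genes of origins, forks, nucleotide and histone supply, E2F control and the replication checkpoint, 67 rose and 7 fell from no to high beads under control Ig, with a median of 1.41. Of all genes tested, 43.4% were called higher there. Anti-Ox40 raised 4 of the 82 without beads and lowered none (median 0.03), raised 15 and lowered 1 with low beads (0.11), and raised 16 and lowered 7 with high beads (0.06). Of all genes, 0.138%, 6.15% and 14.4% were called higher with no, low and high beads, the last not far from the share among the 82. The shares of all genes called lower are not given here. The 4 without beads were Uhrf1, a maintenance methylation factor (0.67, adjusted p 0.0125), Top2a, a topoisomerase (0.66, adjusted p 0.0232), 2810417H13Rik, the Pcna-binding Pclaf (0.56, adjusted p 0.0412), and Ticrr, a partner in helicase activation (0.28, adjusted p 0.0319). With low beads the smallest adjusted p among them were those of Dut, which removes dUTP (0.36, adjusted p 0.00872), and of Samhd1, which degrades dNTPs and fell by 0.38 (adjusted p 0.0105).

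Some relatives of members with other known roles fell with beads. Rrm2b, the ribonucleotide reductase subunit used outside S phase, was at 6.95 to 7.13 nRPKM without beads and 2.05 to 2.46 with high beads under control Ig, and Tk2, the mitochondrial thymidine kinase, at 39.5 to 44.04 and 15.6 to 17.7.

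E2f1, an activating E2F factor, was at 0.976, 1.51 and 1.26 nRPKM with control Ig and 1.53, 1.74 and 1.76 with anti-Ox40 without beads (0.26, adjusted p 0.616), with differences of 0.21 (adjusted p 0.114) with low and 0.06 (adjusted p 0.626) with high beads, none passing the test. Mki67, a marker of cycling cells, was at 3.94, 4.81 and 4.38 with control Ig and at 6.62, 7.23 and 7.23 with anti-Ox40 without beads, a rise of 0.58 (adjusted p 0.0412). With low beads its difference was 0.04 (adjusted p 0.819) and with high beads -0.19 (adjusted p 0.200). Of 10 genes of mitosis 3 rose without beads, beside 0.138% of all genes, namely Tpx2 (0.51), Mki67 and Kif11 (0.47). With low beads Tpx2 was at a difference of 0.25 (adjusted p 0.0647) and Kif11 at 0.21 (adjusted p 0.116), short of the threshold.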

How the data were processed

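Libraries were made from total RNA with the TruSeq RNA kit v2, per the labels' protocols. The submitters' processing notes name the aligner GSNAP and the build GRCm38. The gene models, the counting and the scaling behind the deposited RPKM values (nRPKM, normalised by the authors) were not given in the sources used here, so exon lengths and strand use could shift levels between genes. The 18 libraries were put in 6 groups of 3 from their labels. Values were tested as log2(nRPKM + 1) with limma 3.58.1 in R 4.3.3, with an intensity trend and 1 fit over all 6 groups, for genes at 1 nRPKM or more in at least 3 libraries. All tests were two-sided with Benjamini-Hochberg adjustment over the 13075 genes. The procedure was tested on simulated data first. The members, the other lists and the tests were chosen with earlier results of these data known. Members described by library were the called ones, up to 8 for each antibody comparison (the first 4 by p where fewer than 4 were called), and the 3 largest and 3 smallest bead responses. Gmnn, Mcm4, Mcm6, Pole and Tyms, and without beads also Clspn, Exo1 and Rrm1, were added after their values were seen. Other settings tried were the pseudocount, the filter, 2 scalings, the trend, the groups fitted, a block, covariates and left-out libraries.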

Additional observations from a re-analysis of the deposited data

Results flagged for a closer look

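The antibody effect differed between bead doses, by the interaction test in limma, for 5 results on members. Between high and no beads it was smaller at the high dose for Esco2 (-0.61 on the log2 scale), Clspn (-0.35), Tk1 (-0.34) and Chaf1a (-0.26). Between high and low beads it was lower at the high dose for Mcm6 (-0.33), where the estimate changed sign. Of all genes 4.70% and 1.70% were called lower in these terms, in that order. With 3 libraries a group, no formal outlier test was made within groups.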

How the results depend on the processing

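Counts of members called depended on the setting, and the shares of all genes called under the other settings are not given here. Without beads 4 members were called, and 7 with a pseudocount of 0.1, 0 with no filter, 1 with no trend and 0 in a fit of just the 2 groups concerned. With low beads 20 were called, and 7 with no filter, 0 in the fit of just those groups and 4 with the nuclear RNA covariate. With high beads 1 was called, and 0 with a pseudocount of 0.1 or 0.5, with no filter, with a mean of at least 5 nRPKM or with median-ratio scaling, 7 in the fit of just those groups, and 1 (Mcm6, lower with anti-Ox40) with 75th percentile scaling or the nuclear RNA covariate. For the effect in high minus no beads (4), 75th percentile scaling gave 7. For high minus low beads (1), no filter or no trend gave 0, a mean of at least 5 nRPKM or median-ratio scaling 2, 75th percentile scaling 4 and the nuclear RNA covariate 8. For low minus no beads (0), a pseudocount of 0.1 gave 1. With anti-Ox40 in high over low beads the nuclear RNA covariate left 20 of 44. The median share reached at low beads under anti-Ox40 was 80.8% with 75th percentile scaling. Why the counts differed between settings was not tested.

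Leaving out each library in turn gave 0 to 5 calls without beads, 0 to 39 with low beads and 0 to 4 with high beads. It gave 0 to 11 for low minus no beads, 1 to 6 for high minus no beads and 0 to 16 for high minus low beads. Settings chosen after seeing the data gave, without the library highest in B cell markers in each group, 0 calls in the 3 antibody comparisons, 0 for high minus no and 0 for high minus low beads. With the lung transcript covariate they gave 0 calls with low beads, 2 with high beads and 0 for high minus low beads. For the members picked by the rule on calls and p in each antibody comparison, no direction was reversed by any of the settings. That statement does not cover the other members or the interaction terms. With high beads 26 of 44 estimates were above 0 in the main fit. There were 20 with 75th percentile scaling and 14 with the nuclear RNA covariate, so some members changed sign at that dose.

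The replicate numbers follow accession order, and the labels do not say whether they mark a shared preparation. With a replicate block 6 members were called without beads, 26 with low beads and 4 with high beads, 5 for high minus no and 3 for high minus low beads. In deviations from the group mean, each of the 18 libraries had its best correlation outside its group with a library of its own number. Same-number correlations ran from -0.16 to 0.35 and other-number correlations from -0.28 to 0.20, so the ranges overlapped. Replicate 3 was highest in B cell markers in all 6 groups. These are hints from the data and not from the design that the numbers may pair libraries.

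Depth limits the low members: 5 of them (Orc1, Cdc6, Gins1, Dscc1 and Exo1) had under about 100 reads in a control Ig library without beads.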
